A study of Mus musculus with 2 samples.

Results

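The region described here is the copy of the 45S ribosomal DNA that the mm9 mouse assembly places on chromosome 17. Its members were all CpGs of the methylation table in an interval of chromosome 17 drawn around this copy, which gave 396 of 1790826 CpGs, the first at 39977287 and the last at 39985654. The table came from extended-coverage reduced representation bisulfite sequencing (RRBS) of cultured mouse embryonic fibroblasts (MEFs), with 1 library for each of 2 genotypes. Dnmt1-/- MEFs were homozygous for a hypomorphic allele of Dnmt1 (Dnmt1n/n) and so are not a complete null, and they also lacked trp53. The Dnmt1+/+ control MEFs carried the same trp53 deletion. Without replicate libraries, every test below compares the 2 libraries and not the genotypes. The GENCODE annotation used here names no ribosomal RNA gene in the region, and other annotations of this build were not searched. Neither of its 2 annotated 5.8S genes matched the sequence there (0 matches), and 18S and 28S sequences were not sought. The positions of the 18S, 5.8S and 28S segments were therefore not drawn, and the label rests on the rule and on the depth given below.

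Ribosomal DNA is carried by mouse cells as tandem arrays of near-identical units on several chromosomes. RNA polymerase I transcribes each unit into the 45S precursor, which is cut into the 18S, 5.8S and 28S RNAs of the ribosome. Cells keep some units silent, and silent units carry CpG methylation that Dnmt1, the maintenance methyltransferase, copies onto the new strand at replication. A reference assembly holds few of these units, so reads from many of them can be placed on the assembled copy together. A methylation level in this region may thus be a mean over an unknown number of units, and that number was not measured for any CpG.

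Of the 396 members, 392 formed a block of 5697 bp from 39979959 to 39985654, and 4 lay singly upstream of it. The block had a GC content of 64.8% with 10.2 CpGs per 100 bp, and 67.5% of its 581 CpGs were measured, compared with 8.39% of all CpGs of the listed chromosomes. CpGs inside the recognition sequences CCGG and TCGA were kept apart from all other CpGs, since their levels behaved differently (below). The sources used here name no enzyme, and these sequences, which MspI and TaqI cut, were taken from the table itself: 44.4% of its CpGs lie in one of them, compared with 14.0% of the CpGs of the listed chromosomes. They made up 66 of the members, 47 in CCGG and 19 in TCGA, and the other 330 are called other CpGs. GENCODE places 1 gene model over the block, the pseudogene AY036118 on the minus strand at 39985048 to 39985772, whose body held 54 members, with 6, 1, 43 and 3 of them in exons 1 to 4.

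The sequences below are restriction fragments of the block, from NCBIM37 (mm9), plus strand, 5′ to 3′, with every CpG in capitals. They are shown because they carry the levels described in the following paragraphs, and they run from 1 recognition sequence to the next.
First deep fragment, chr17:39979958-39980083: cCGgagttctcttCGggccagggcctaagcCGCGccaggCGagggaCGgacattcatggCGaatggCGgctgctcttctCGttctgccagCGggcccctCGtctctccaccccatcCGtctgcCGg
Fragment with the highest deep CpG in Dnmt1+/+ MEFs, chr17:39981492-39981606: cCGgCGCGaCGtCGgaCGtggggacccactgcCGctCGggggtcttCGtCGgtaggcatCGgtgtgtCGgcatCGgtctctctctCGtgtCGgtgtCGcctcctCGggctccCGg
A shallow fragment, chr17:39981949-39982025: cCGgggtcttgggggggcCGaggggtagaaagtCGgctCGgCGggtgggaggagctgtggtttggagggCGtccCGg
The deep fragment that follows it, chr17:39982022-39982183: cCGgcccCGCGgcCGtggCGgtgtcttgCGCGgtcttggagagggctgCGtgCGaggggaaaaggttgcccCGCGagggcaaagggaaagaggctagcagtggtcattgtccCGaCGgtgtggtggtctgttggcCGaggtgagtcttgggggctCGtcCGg
Deep fragment with the most methylation left in Dnmt1-/- MEFs at over 1000 calls, chr17:39982773-39982835: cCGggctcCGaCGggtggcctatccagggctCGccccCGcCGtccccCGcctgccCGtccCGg
Shallow fragment with the most methylation left in Dnmt1-/- MEFs, chr17:39983582-39983652: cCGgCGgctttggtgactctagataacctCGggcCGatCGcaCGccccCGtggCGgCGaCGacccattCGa
Last shallow fragment, reaching into AY036118, chr17:39984868-39985077: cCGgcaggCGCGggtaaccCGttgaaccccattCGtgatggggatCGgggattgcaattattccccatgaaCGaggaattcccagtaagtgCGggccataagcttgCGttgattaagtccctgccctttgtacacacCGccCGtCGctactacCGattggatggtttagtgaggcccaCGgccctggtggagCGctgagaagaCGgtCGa

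Most CpGs of the block were among the deepest of both libraries. A call is 1 reading of a CpG as methylated or unmethylated, and depth is the number of calls. The median member had 4490 calls in the Dnmt1+/+ library (11 to 18508) and 3293 in the Dnmt1-/- library (10 to 16409), where the whole table had medians of 29 and 30. The depth of 334 members in each library exceeded the 99th percentile of the table, at 161 and 176 calls, and among the 1000 deepest CpGs were 334 members in the Dnmt1+/+ and 324 in the Dnmt1-/- library. The members took 2.80% of 74636195 calls in the Dnmt1+/+ library and 2.17% of 78401157 in the Dnmt1-/- library.

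Depth split the block into 2 kinds of stretch. The members of 6 runs were shallow, with 16 to 124 calls in Dnmt1+/+ and 27 to 160 in Dnmt1-/- MEFs, while the 7 runs between and around them were deep, with at least 443 and 237 calls. This gave 334 deep members (280 other CpGs and 54 in recognition sequences) and 58 shallow ones (50 and 8). The limit of 200 calls was set after the depths were seen, so it describes the block and carries no test. No member of the block fell between the classes in either library, and the median depth of the deep other CpGs was 5087 calls in Dnmt1+/+ and 4015 in Dnmt1-/- MEFs, against 61 and 53.5 for the shallow ones.

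**Figure D1:**
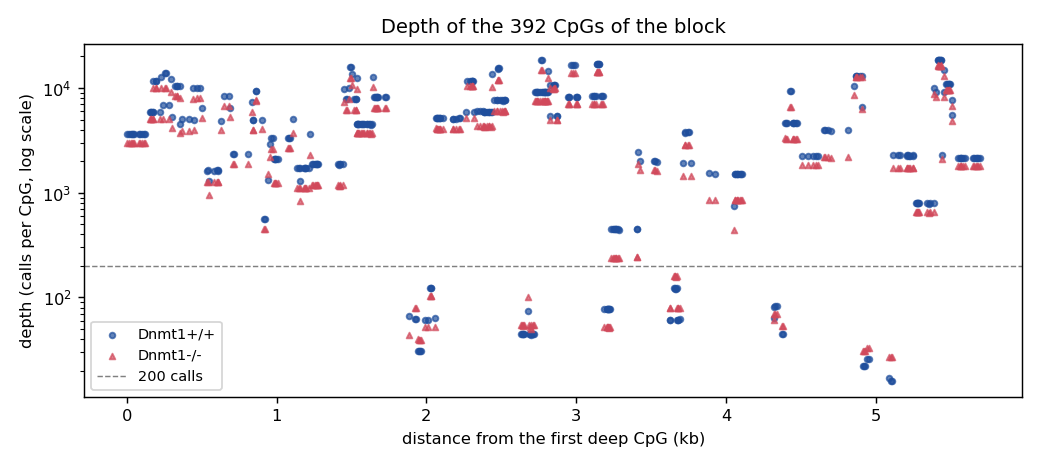
Depth (calls per CpG, log axis) of the 392 CpGs of the block against the distance from its first CpG, with 1 point per CpG and library (circles Dnmt1+/+, triangles Dnmt1-/-). The dashed line marks 200 calls: 6 short runs lie below it in both libraries, at 16 to 160 calls, and the remaining members lie at 237 to 18508.

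The deep class took a smaller share of the Dnmt1-/- library than of the Dnmt1+/+ library. Its calls in the Dnmt1-/- library were 0.813 times those in the Dnmt1+/+ library, although the Dnmt1-/- library held 1.05 times as many calls in all, so its share of the library was 0.774 times that in Dnmt1+/+. For the shallow members the ratio of calls was 1.06 and that of shares 1.01, while their median depth was 0.877 times that in Dnmt1+/+. The 399 CpGs elsewhere in the table at or above the lowest depths of the deep class gave a ratio of shares of 0.951, and the 110 of them that were other CpGs with at most 20% methylation in Dnmt1+/+ MEFs gave 0.843. Both sets include 5 other CpGs of a copy of part of the block on chromosome 6 (below), so neither is wholly separate from it. Fewer rDNA units and a lower recovery of their fragments cannot be told apart from 1 library each.

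At deep other CpGs, methylation was low in Dnmt1+/+ MEFs and lower still in Dnmt1-/- MEFs. The mean over the 280 CpGs was 6.44% (median 5.998%, range 2.57 to 18.0%) in Dnmt1+/+ and 1.39% (median 1.22%, range 0.228 to 8.79%) in Dnmt1-/- MEFs. Pooling their 1749716 and 1426115 calls gave 6.29% (95% Wilson interval 6.26 to 6.33%) and 1.34% (1.32 to 1.36%), intervals that cover counting error only, since PCR copies and overlapping reads are not independent molecules. The level was lower in the Dnmt1-/- library at 280 of 280 CpGs, by a median of 4.77 points, and the mean left in Dnmt1-/- MEFs was 21.6% of that in Dnmt1+/+. In 260 of the 280 the level in Dnmt1-/- MEFs was under 2%. The bisulfite conversion rate is not given, so the part of such low levels that is unconverted cytosine was not tested.

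The shallow other CpGs stood at a quite different level. Their mean was 62.9% in Dnmt1+/+ MEFs (range 20.3 to 94.1%) and 9.15% in Dnmt1-/- MEFs (range 0 to 27.5%). The pooled calls gave 64.2% (62.5 to 65.9%) and 12.02% (10.96 to 13.2%). All 50 were lower in the Dnmt1-/- library, and the mean left was 14.5% of that in Dnmt1+/+ MEFs. The lowest shallow CpG in Dnmt1+/+ MEFs, at 20.3%, lay above the highest deep one, at 18.0%, so the classes drawn from depth did not overlap in methylation in that library, while they did in Dnmt1-/- MEFs.

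**Figure D2:**
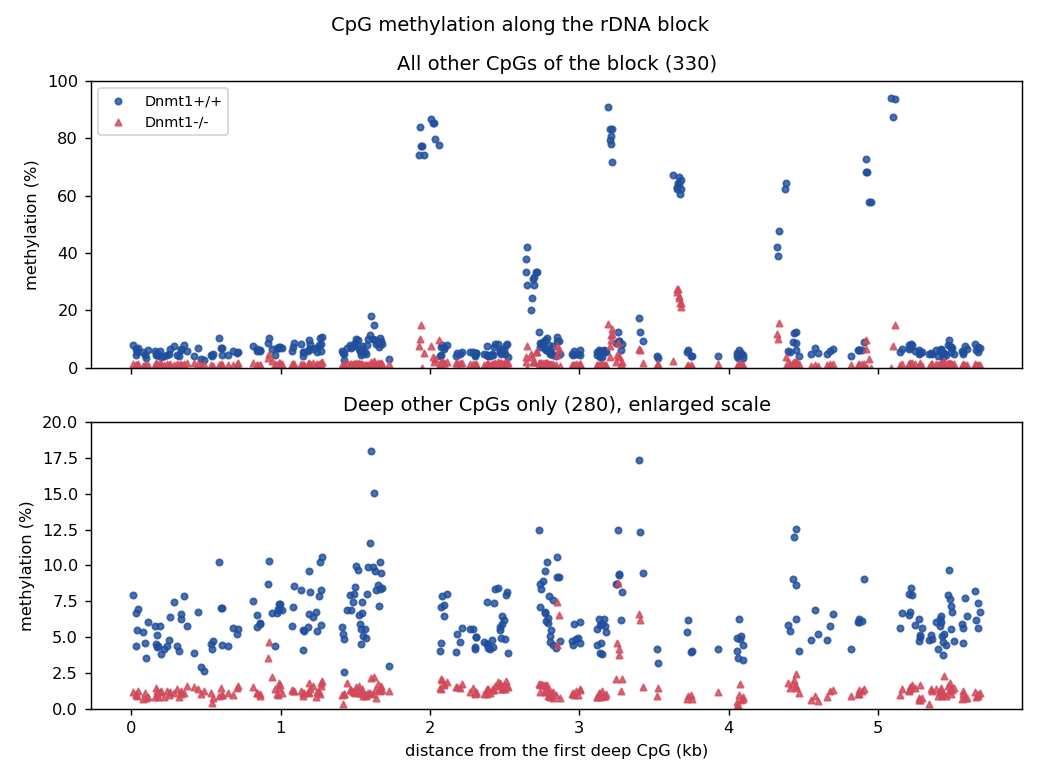
Methylation (%) of other CpGs against the distance from the first CpG of the block, for Dnmt1+/+ (circles) and Dnmt1-/- (triangles), with 1 point per CpG. The upper panel shows all 330 CpGs, where 6 clusters rise to between 20.3 and 94.1% in Dnmt1+/+ MEFs, and the lower panel shows the 280 deep ones on a scale to 20%, where Dnmt1+/+ points lie above Dnmt1-/- points along the whole block.

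Each CpG was tested between the libraries with Fisher's exact test (two-sided, calls of each status, p-values adjusted over the whole table by Benjamini-Hochberg). By this test 357 of the 396 members were lower in the Dnmt1-/- library, where 43.7% of all CpGs were. Of the 399 very deep CpGs elsewhere (above), 89.7% were called lower. No member was called higher (0.462% of all CpGs), and none rose at an unadjusted p under 0.05 either. Among other CpGs 328 of 330 members were called lower, against 44.2% in the table, and 0 higher, against 0.635%. The very deep other CpGs elsewhere had a similar share, with 297 of 308 (96.4%) called lower and 0 higher. At such depths the test calls small differences, so a rule on size was applied beside it. A fall of at least 25 points was seen at 53 members, against 46% of all CpGs, and all 53 were shallow. They were 48 other CpGs, where 44.4% of other CpGs in the table fell this far, and 5 in recognition sequences, where 47.8% did. A rise of that size was seen at 0 members, against 0.438% of all CpGs, 0.433% of other CpGs and 0.444% of those in recognition sequences. A fall of this size was seen at 0 deep members, and no deep other CpG started above 18.0%, so for them the rule could not be met.

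The share of methylation left in Dnmt1-/- MEFs was set beside that of CpGs outside the region in the same class of Dnmt1+/+ level, although starting levels differed within a class. Outside the region, other CpGs with at most 20% methylation in Dnmt1+/+ MEFs had a mean of 3.06% there and 2.06% in Dnmt1-/- MEFs, or 67.4% of the starting level, where the deep members kept 21.6%. The very deep CpGs elsewhere were much closer, with means of 6.96% and 1.73% over 110 CpGs of this class, or 24.8%. These 110 include the 5 CpGs of the chromosome 6 copy, so they are not wholly separate from the block. Whether other rDNA sequence is among them was not tested. Shallow other CpGs that began between 20 and 80% kept 16.9% of their mean (56.2% to 9.51%, 39 CpGs), compared with 26.5% outside (55.0% to 14.6%), and those from 80% up kept 9.03% (86.9% to 7.84%, 11 CpGs), compared with 33.8% (94.6% to 32.0%). Other CpGs within 1 Mb of the region on chromosome 17 kept 14.4% (79.0% to 11.4%, 251 CpGs). These shares are descriptions without a test, since neighbouring CpGs share reads. Where the level left is low, they also depend on the conversion rate, which is not given.

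**Figure D3:**
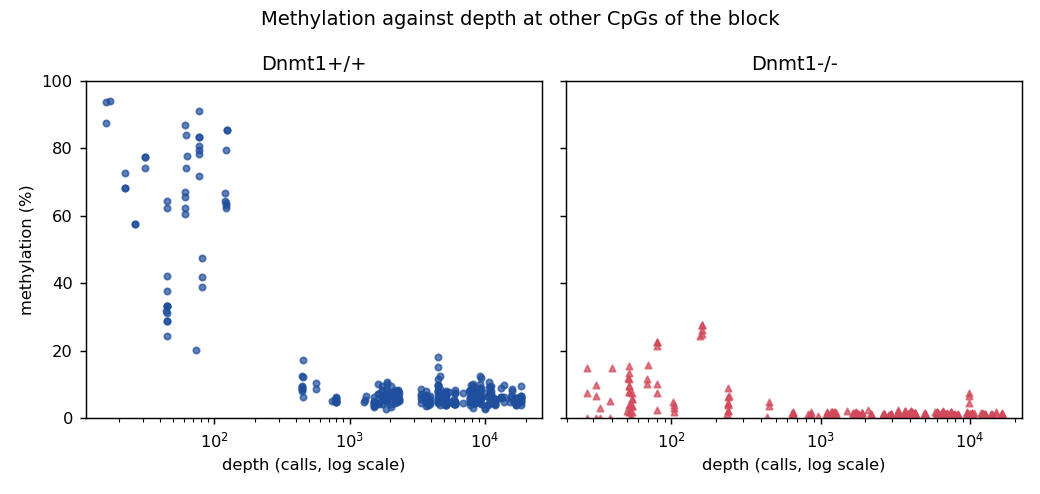
Methylation (%) against depth (calls, log axis) at the 330 other CpGs of the block, Dnmt1+/+ on the left and Dnmt1-/- on the right, with 1 point per CpG. In Dnmt1+/+ MEFs all points at up to 124 calls lie at or above 20.3% and all points from 443 calls lie at or below 18.0%.

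Among the deep other CpGs, a few stood out, and they are named here after their values were seen. The highest in Dnmt1+/+ MEFs was at 39981565, base 74 of the second sequence above, with 18.0% of 4491 calls (95% Wilson interval 16.9 to 19.1%) against 2.16% of 3700 in Dnmt1-/- MEFs (1.74 to 2.68%). The CpG at 39981582, base 91 of that sequence, had 15.0% and 2.24%. Levels in this fragment began at 4.54% at its first other CpG and lay at 8.30% to 18.0% from base 50 onwards. Over the same fragment the levels in Dnmt1-/- MEFs lay between 0.783% and 2.24%.

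The deep other CpGs with the highest levels in Dnmt1-/- MEFs did not include those named above. The CpG at 39983362, described below, was among the 5 highest of them in both libraries. In the 63-base fragment shown above, the CpGs at 39982810, 39982813 and 39982820 (bases 38, 41 and 48) had 7.46%, 4.43% and 6.51% of 9836 to 9953 calls in the Dnmt1-/- library, compared with 10.6%, 9.19% and 9.20% in Dnmt1+/+. The 4 remaining other CpGs of the fragment had between 0.723% and 1.20% in the Dnmt1-/- library. Both outer CpGs of the triplet kept 70.6% and 70.8% of their starting level, and both were still called lower, with adjusted p = 2.36e-13 and 1.43e-11 by Fisher's exact test.

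The deep fragment 39980861 to 39980916 had means of 8.58% and 3.48% over 3 other CpGs, at 449 to 1499 calls in the Dnmt1-/- library. A further stretch with high retention had the lowest depths of the deep class. The run from 39983194 to 39983499 had means of 9.13% and 3.62% over 12 other CpGs, the highest of the 7 deep runs in both libraries, whose means spanned 4.63 to 9.13% and 0.778 to 3.62%. Its CpG at 39983219 had 12.5% of 449 calls and 8.79% of 239, the highest level among deep other CpGs in Dnmt1-/- MEFs. The difference between the libraries at this CpG did not pass the test (adjusted p = 0.286, Fisher's exact test). The CpG at 39983362 had 17.4% of 455 calls (14.2 to 21.1%) and 6.61% of 242 (4.11 to 10.5%). A 140-bp part of this stretch, 39983297 to 39983436, has a copy on chromosome 16 (18533285 to 18533424, within the gene Gnb1l) that is 100% identical, at which 0 CpGs were listed.

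At the other end of the deep class, the CpGs at 39981383, 39980448 and 39980429 had 2.57%, 2.61% and 2.94% in Dnmt1+/+ MEFs and 1.03%, 1.27% and 1.06% in Dnmt1-/- MEFs. The 3 deepest members by the calls of both libraries together, at 39985392, 39985379 and 39985376 inside AY036118, had 3.76%, 6.05% and 6.23% of 18493 to 18508 calls in Dnmt1+/+ MEFs, so the Wilson interval of the first (3.49 to 4.04%) lay below that of its neighbours (5.71 to 6.40% and 5.89 to 6.59%). In Dnmt1-/- MEFs they had 1.02%, 1.47% and 1.19%. The depth was thus enough to resolve CpGs of one fragment from each other as far as counting error goes. Across the 280 deep CpGs the levels in the 2 libraries had a Pearson r of 0.54, given as a description because CpGs of a fragment share reads and the libraries share the reference.

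The 6 shallow runs were described by the means of their other CpGs, since CpGs of the same restriction fragment share reads. The run from 39981844 to 39982018 had means of 80.2% in Dnmt1+/+ and 6.36% in Dnmt1-/- MEFs over 10 CpGs, and includes the third sequence above. The next, from 39982591 to 39982678, was the least methylated in Dnmt1+/+ MEFs, with 31.4% and 3.50% over 11 CpGs. A run of 7 CpGs from 39983148 to 39983183 had 81.1% and 10.5%.
The run from 39983583 to 39983650, shown as the sixth sequence, had the highest level left in Dnmt1-/- MEFs, 22.2% over 9 CpGs, from 64.0% in Dnmt1+/+. The 5 highest other CpGs of the region in Dnmt1-/- MEFs all lay in it, with 27.5% at 39983616 and 39983620, 26.2% at 39983611, 25% at 39983630 and 24.4% at 39983624. The run from 39984278 to 39984343 had 51.0% and 8.25% over 5 CpGs. The last run, from 39984876 to 39985071, had 74.98% and 5.17% over 8 CpGs, with the lowest depths of the block, 16 to 26 calls in Dnmt1+/+ and 27 to 33 in Dnmt1-/- MEFs.

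The last run held the highest levels among other CpGs of the region in Dnmt1+/+ MEFs. At 39985046, 16 of 17 calls were methylated, or 94.1% (73.0 to 98.95%), and in Dnmt1-/- MEFs 0 of 27 were, which allows a level of up to 11.1%. This was the largest fall of any other CpG of the region. The CpGs at 39985071 and 39985060 had 93.8% and 87.5% in Dnmt1+/+ and 14.8% and 7.41% in Dnmt1-/- MEFs. Falls that rest on more calls were seen in the first run, where 39981987 went from 85.5% of 124 calls to 1.92% of 104 and 39981982 from 85.5% to 3.85%. In the third run 39983148 had 91.0% and 15.4%, and 39983167 had 83.3% and 3.85%.

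The block holds 83 recognition sequences, and how often neighbouring members in general have one at or between them was not counted. It held 12 changes between a deep and a shallow run, and at 11 of them a recognition sequence lay at or between the facing members. The exception lay between 39983139 and 39983148, inside the fragment 39983067 to 39983183, whose 11 deep other CpGs had a Dnmt1+/+ mean of 5.26% and whose 7 shallow ones had 81.1%. As an example of the 11, the shallow fragment 39981950 to 39982023 had means of 83.1% and 5.19% over its 5 other CpGs, and the deep fragment that starts at the same site, 39982023 to 39982181, had 5.89% and 1.67% over 11. Depth changed at the same place, from 52 to 124 calls in the first fragment over both libraries to 4050 to 5154 in the second. All 38 deep fragments had mean levels between 4.10 and 10.3% in Dnmt1+/+ and between 0.669 and 4.40% in Dnmt1-/- MEFs, and all 7 shallow fragments had means between 31.4 and 83.1% and between 3.50 and 22.2%, the fragment with both kinds being counted in each. Depth within a fragment was nearly flat in 19 deep fragments, and in 11 the highest depth was 1.9 to 2.1 times the lowest in both libraries. What doubled the depth was not tested.

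The assembly holds another copy of part of the block, and at a pair of neighbouring fragments there the depths were exchanged. A stretch of chromosome 6, 3150770 to 3151677, outside any annotated gene, is 98.0% identical to 39983626 to 39984532 over 908 bp. At the shallow fragment of the fifth shallow run, whose 5 other CpGs had 45 to 82 calls in Dnmt1+/+ and means of 51.0% and 8.25% on chromosome 17, the aligned fragment of chromosome 6 had 3625 to 3646 calls and means of 6.49% and 1.68% at the same 5 CpGs, which are among the very deep CpGs outside the region counted above. At the next fragment, deep on chromosome 17 with 4633 to 9276 calls and means of 7.98% and 1.70% over 8 CpGs, the chromosome 6 copy had 69 to 150 calls and means of 65.4% and 26.2%. So in this pair the deep and weakly methylated fragment lay on chromosome 6 first and on chromosome 17 next.
The first of these fragments is printed for both copies, in NCBIM37, plus strand, CpGs in capitals, and they differ at 2 of 77 bases, C7T and T72G, counted from the first printed base with the chromosome 17 base named first.
Chromosome 17, chr17:39984277-39984353: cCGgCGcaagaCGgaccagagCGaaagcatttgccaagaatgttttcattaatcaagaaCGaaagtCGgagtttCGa
Chromosome 6, chr6:3151421-3151497: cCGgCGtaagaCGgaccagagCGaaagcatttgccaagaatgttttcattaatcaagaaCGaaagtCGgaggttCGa

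Other stretches of the same copy, and a further one, were shallow where the block was deep. At 39983673 to 39983728, where 4 other CpGs of the block had 3748 to 3801 calls in Dnmt1+/+ MEFs and means of 4.89% and 0.809%, the chromosome 6 copy had 24 calls in Dnmt1+/+ at each of 3 CpGs and means of 83.3% and 13.3%. A 338-bp copy on chromosome 1 (56838892 to 56839229, no annotated gene, 96.7% identical to 39984561 to 39984898) had 27 to 100 calls in Dnmt1+/+ MEFs at its 6 other CpGs and means of 94.1% and 50.4%. Whole restriction fragments of the block that lie in these copies differed from them at 1 to 9 bases. In all, 60 members of the block lay in a stretch with a copy of at least 95% identity and 100 bp in the assembly, 14 of them shallow and 46 deep. The part of read placement in the levels was not tested.

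The members in recognition sequences behaved unlike their neighbours. The 54 deep ones had a mean of 53.0% in Dnmt1+/+ (range 7.20 to 98.5%) and 51.2% in Dnmt1-/- MEFs (range 5.27 to 98.8%), next to other CpGs whose highest level was 18.0%. At 51 of the 54 the libraries lay within 5 points of each other, and their Pearson r was 0.996, again as a description. The Dnmt1-/- level was below the Dnmt1+/+ level at 46 and above it at 8. By Fisher's exact test 24 of the 54 were called lower, and 29 of all 66 members in recognition sequences were, against 43.1% of such CpGs in the table. Of the 91 such CpGs among the very deep ones elsewhere, 67.0% were. None of the members was called higher (0 of 66, against 0.245%). By sequence, 27 of 47 in CCGG and 2 of 19 in TCGA were called lower, against 43.2% and 43% in the table.

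The largest fall among the deep members in recognition sequences was at 39980916, from 49.4% to 39.4%, and the largest rise at 39983194, from 14.7% to 19.2% (adjusted p = 0.237, Fisher's exact test), both named after their values were seen. The last member of the region, at 39985654, is a CCGG at which 42.3% of 2147 calls and 36.7% of 1791 were methylated (adjusted p = 0.00114, Fisher's exact test). The 8 shallow members in recognition sequences had means of 79.8% and 50.6%.

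In deep fragments the levels at both ends summed to just over 100%. This was looked at in fragments whose end CpGs were both measured and had a depth within 1.1 times the lowest depth among the CpGs inside, so that a neighbouring fragment added few calls. This was met by 7 deep fragments, in some of which other inner CpGs had about 2 times the depth of the ends. In the first sequence above, the left end had 78.3% and the right end 27.6% in Dnmt1+/+, which sum to 105.9%, and in Dnmt1-/- MEFs the ends had 76.5% and 26.1%, which sum to 102.6%. In the fourth sequence the ends had 15.8% and 90.4%, with a sum of 106.2%. Over the 7 fragments single ends ranged from 12.8 to 93.7% in Dnmt1+/+ MEFs, while the sums ranged only from 105.9 to 108.0%. In Dnmt1-/- MEFs the sums ranged from 102.2 to 104.5%, and each was below its sum in Dnmt1+/+. The median of the inner CpGs of these fragments was 5.89% and 1.13%, and the median sum 106.3% and 102.8%. The 1 shallow fragment that met the same rule had inner means of 64.0% and 22.2% and sums of 164.4% and 118.8%. Outside the region, 249 fragments with at least 100 calls and inner means of at most 20% in both libraries had median sums of 103.4% (quartiles 101.0 to 106.7%, range 68.7 to 178.2%) and 103.8% (101.8 to 106.3%, range 71.3 to 140.5%). Whether the levels at CCGG and TCGA are those of the cells or arose while the libraries were made was not tested, so the 53.0% and 51.2% above cannot be read as methylation of the cells. The means over other CpGs do not contain them.

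**Figure D4:**
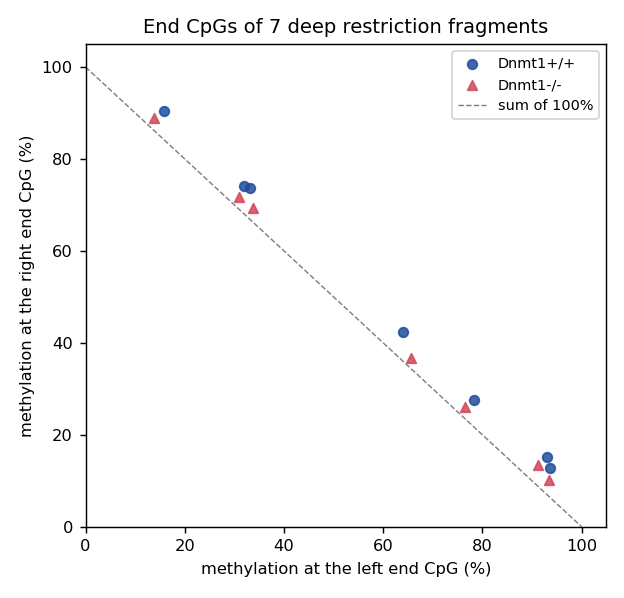
Methylation (%) of the CpG at the left end against that at the right end of 7 deep restriction fragments, for Dnmt1+/+ (circles) and Dnmt1-/- (triangles), with a dashed line where both sum to 100%. All points lie just above the line. The sums run from 105.9 to 108.0% in Dnmt1+/+ MEFs, and those of Dnmt1-/- MEFs from 102.2 to 104.5%.

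Along the block, windows of 500 bp with at least 5 other CpGs mainly followed the position of the shallow runs. The highest in both libraries, 39983500 to 39983999, had 42.9% in Dnmt1+/+ and 14.6% in Dnmt1-/- MEFs over 14 CpGs, of which 9 were shallow. With calls pooled, which weights deep CpGs more, this window had 7.70% in Dnmt1+/+ MEFs and the highest was 39981500 to 39981999, at 8.99%. The lowest in Dnmt1+/+ MEFs, 39980000 to 39980499, had 5.08% over 29 CpGs, all deep, and the lowest in Dnmt1-/- MEFs, 39985500 to 39985999, had 0.955% over 10. With deep CpGs alone the highest window fell to 8.77% in Dnmt1+/+, at 39981500 to 39981999, and to 2.35% in Dnmt1-/- MEFs, at 39983000 to 39983499, and the lowest were 4.75% and 0.880%. The deep part of the unit thus showed no window without loss in Dnmt1-/- MEFs and none above 8.77% in Dnmt1+/+.

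The 4 members upstream of the block, all in TCGA and 1695 bp or more before it, had 11 to 40 calls in Dnmt1+/+ and 10 to 39 in Dnmt1-/- MEFs, about the depth of the rest of the table. Their levels were 18.2%, 90.9%, 32.5% and 92.3% in Dnmt1+/+ and 0%, 90.9%, 30.8% and 79.5% in Dnmt1-/- MEFs. The first of them, at 39977287, had 2 of 11 and 0 of 10 methylated calls, of which the second allows up to 30%, and none of the 4 passed Fisher's exact test (0 of 4).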

How the data were processed

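Genomic DNA of 1 Dnmt1+/+ and 1 Dnmt1-/- MEF culture was prepared by the authors for RRBS. Per the labels, a service provider sequenced it and mapped the reads, and the submitters' notes name Bismark and mm9. The bisulfite conversion rate and the enzymes are not given in the sources used here. The deposited table gives, for each CpG and library, the depth as a count of reads of known status and the methylated percent, with both strands merged and only CpGs with a depth of at least 10 in both libraries.

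Methylated calls were recovered as depth times percent (whole to within 1.09e-11) and tested per CpG with a two-sided Fisher's exact test (numba 0.67.0), Benjamini-Hochberg adjusted over 1790826 CpGs at 0.05. Intervals are Wilson at 95% and 0 calls were given a limit of 3. The test was checked on simulated counts. All table positions fell on a CG of NCBIM37, read with samtools 1.23.1, and copies were sought with blastn 2.17.0 (at least 95% identity, 100 bp). Total depth was 74636195 and 78401157 calls.

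The members, lists and tests were chosen with earlier results of these data known. Named CpGs are the 5 highest other CpGs in each library, the 5 largest falls, any called higher, the 3 deepest members, the first and last member, and the extreme windows. Depth classes, fragment ends, aligned copies and CpGs said to be so were chosen after the values were seen. Segments of the 45S unit were not analysed here for want of an rRNA annotation. Alternatives were pooled calls, subsets of members, depth minima, thinning, a stricter threshold and wider windows.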

Additional observations from a re-analysis of the deposited data

How the results depend on the processing

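Mean methylation over all members, 21.9% in Dnmt1+/+ and 10.6% in Dnmt1-/- MEFs (difference -11.3 points), includes CpGs in recognition sequences, whose levels may not be those of the cells. It depended on which CpGs were counted but fell in Dnmt1-/- MEFs each time. It was 13.9%, 9.26% and -4.65 points with calls pooled, 15.0%, 2.57% and -12.4 at other CpGs, 15.3%, 9.63% and -5.68 at a depth of at least 100, 20.6%, 9.74% and -10.9 without stretches copied elsewhere, and, in subsets added after seeing the data, 14.0%, 9.44% and -4.52 for deep and 65.3%, 14.9% and -50.4 for shallow members. The 357 of 396 members called lower became 53 with a fall of at least 25 points, 25 when every CpG was thinned to 10 calls and 55 of 58 shallow members. They became 349 at 0.01, 328 of 330 other CpGs and 302 of 334 deep members, and none was called higher in any of these settings. The share of all CpGs called when thinned or at 0.01 is not given here, so those counts describe the members only. The 53 falls of 25 points became 48 at other CpGs and 0 in deep members. The ratio of median depths, 0.733, was 0.814 for mean depths, 0.794 in deep and 0.877 in shallow members. The highest window went from 42.9% to 30.3% (windows of 1000 bp) or 8.99% (calls pooled, at another window, 39981500 to 39981999) in Dnmt1+/+, and from 14.6% to 7.52% or 2.72% in Dnmt1-/- MEFs, and the lowest, with windows of 1000 bp, from 5.08% to 5.77% and from 0.955% to 1.26%. The 35 named CpGs were chosen by their values, depth or position in these data, so counts among them describe the list only. Of these 35, 30 were called at 0.05 and 29 of these at 0.01, and 5 were not called. Thinned to 10 calls, which by construction removes most calls of small differences, 11 kept their call or lack of one, 20 lost it and 4 changed direction: 39985376 (10 points), 39985654 (20), 39983194 (-20) and 39985510 (-30). Restriction to members inside an annotated Rn45s gene was not run, as the annotation used has none. No paired analysis was possible because there was 1 library per genotype and no replicate numbers. Nothing here measures the spread between cultures.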
